A study of Mus musculus with 9 samples.

Results

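The miR-378, miR-193 and miR-365 families were described in mouse hippocampus after PM2.5 aspiration. The array carried 12 entries of these families among its 1247 mouse miRNAs, and the 7 called detected on at least 3 of the 9 arrays are described here: mmu-miR-378a-3p, mmu-miR-378b, mmu-miR-378c, mmu-miR-378d, mmu-miR-193a-3p, mmu-miR-193b-3p and mmu-miR-365-3p (mmu, mouse, is left out below). The families were chosen by their values on these same arrays, because miR-378a-3p and miR-193a-3p were higher with PM2.5 than in the control, so every difference from the control given for the 7 miRNAs is a description and carries no test. All 9 mice were male C57BL/6, obtained at about 8 weeks of age before the exposure, with no transgene or injected construct. The control group (3 mice) was given saline by oropharyngeal aspiration. The other groups (3 mice each) were given fine particulate matter, PM2.5, in saline at 1 mg/kg bw or at 5 mg/kg bw, on alternate days over 4 weeks. The PM2.5 came from filters, and the study's separate vehicle group, given saline sonicated with a blank filter, is not among these arrays by their labels. Filter material and PM2.5 can thus not be told apart here. Total RNA of the hippocampus was labelled with Cy3, with 1 array per mouse, although the series' design text speaks of independent experiments with replicates and does not name the mice. Levels below are log2 of the background-subtracted signal divided by the 75th percentile of the array, so that a difference of 1 is a doubling.

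MicroRNAs are short RNAs that guide Argonaute proteins to messenger RNAs, mainly through the seed at bases 2 to 8, and lower the output of those messages. miR-378a lies in an intron of Ppargc1b, the gene of the coactivator PGC-1β, and is known for its part in mitochondrial and lipid metabolism. The miR-193b and miR-365 genes lie close together and are known from brown fat and muscle differentiation. The hippocampus itself contains neurons, glia and vessels, and the array signal is a sum over all of them.

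The mature sequences of 6 of the 7 miRNAs, from RefSeq on GRCm38.p6, are shown because the results turn on which of them share a seed and which share a probe target. They are written 5′ to 3′ with the seed in capitals.
miR-193a-3p: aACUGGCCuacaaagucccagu
miR-193b-3p: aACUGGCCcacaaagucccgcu
miR-378d: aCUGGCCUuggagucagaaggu
miR-378c: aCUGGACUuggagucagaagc
miR-378b: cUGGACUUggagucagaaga
miR-365-3p: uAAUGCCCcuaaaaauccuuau
miR-193a-3p and miR-193b-3p had the same seed, ACUGGCC, and were the only 2 of 1679 mature sequences in the table with it at bases 2 to 8. They differed by the substitutions U9C, A20G and G21C, counted from the 5′ end of miR-193a-3p, all outside the seed. The same 7 letters stood at bases 1 to 7 of miR-378d, and 4 mature sequences (0.238%) held them at any position. miR-378c and miR-378d differed by A6C, in the seed, and C21G, counted from the 5′ end of miR-378c. miR-378b began 1 base later than miR-378c and differed from it only by A20C, counted in miR-378b, so that its bases 2 to 8 read UGGACUU. miR-365-3p had a seed of its own, AAUGCCC, at bases 2 to 8 of 1 mature sequence of the table.

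The hairpins of these 6 miRNAs lay at 7 loci. Mir193a (chr11:79711969-79712034, plus strand) and Mir365-2 (chr11:79726400-79726511, plus strand) were separated by 14365 bases and lay in no annotated gene span. Mir193b (chr16:13449523-13449601, plus strand) and Mir365-1 (chr16:13453840-13453926, plus strand) were separated by 4238 bases, and both lay within the spans of the RNA genes Gm32817 and Gm53058. The mature miR-365-3p was the same from both of its loci, so the array signal cannot tell them apart. Mir378b (chr11:88352773-88352864, plus strand) lay within the span of Msi2, which encodes an RNA-binding protein. Mir378c (chr14:46954830-46954928, minus strand) lay within the spans of Samd4 and Gm52120. Mir378d (chr10:126710282-126710391, minus strand) lay in no annotated gene span.

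Each of the 7 miRNAs was measured by 2 probes with 20 spots each, and the match of these probes decides what each signal can hold. The probe targets of miR-378a-3p were 13 and 14 bases long and were found whole in miR-378d, while miR-378b and miR-378c shared 12 and 13 bases in a row with them. The 16 and 17 base targets of miR-378b shared 15 and 16 bases in a row with miR-378c and 14 with miR-378d. The targets of miR-378d shared 14 bases in a row with miR-378b and miR-378c. The 15 and 16 base targets of miR-378c shared 14 and 15 bases in a row with miR-378b and 14 with miR-378d. miR-378b gave 92.1 to 123 units and miR-378c only 8.70 to 12.5. The 4 signals of the miR-378 family may therefore hold part of each other, and this was not tested. Targets of miR-193a-3p (16 and 17 bases) shared at most 10 bases in a row with miR-193b-3p. The probes of miR-365-3p (21 and 22 bases) shared at most 4 bases in a row with any other of the sequences shown.

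Between 410 and 436 miRNAs were detected per array, 0 spots were saturated, and the 75th percentile of the signal was 492 to 614 units. A limma fit over the 3 groups took in 424 miRNAs, all 7 among them, each detected in every array of some group. With 3 arrays a group, precision is limited by their number. On slide 1, the controls and replicate 1 of the 1 mg/kg group shared row 1. Row 2 of slide 1 carried the 2 remaining 1 mg/kg arrays beside replicates 1 and 2 of the 5 mg/kg group. Replicate 3 of the 5 mg/kg group was alone on slide 2, in row 1. Where the row serves as a block or for row means below, rows of the same number were pooled over both slides. The row therefore overlaps in part with the dose. Blood, choroid plexus and brain markers, given at the end, also differed between arrays, and in hippocampal RNA more cells of a type cannot be told apart from more RNA per cell.

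Of the 5 family entries left out, miR-378a-5p, the other arm of the miR-378a hairpin, was nearest to the limit, with detection on 2 arrays (1 at each dose) and 11.19 to 14.96 units. Among the 7, miR-378c had the fewest detections, on 8 arrays and on 2 of the 3 control arrays, with a signal of 8.70 to 12.5 units, and the other 6 were detected on all 9. The entries miR-193a-5p, miR-193b-5p, miR-365-1-5p and miR-365-2-5p were detected on 0 arrays, with background-subtracted signals between -7.54 and 5.58 units. Apart from miR-378a-5p, detected signal in the 3 families thus came from the 3p arms and from miR-378b, miR-378c and miR-378d, for which the array names no arm.

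miR-378a-3p, which acts on messages of energy metabolism, was higher at both doses than in the control, with small differences and a very small spread. Its level was -1.98, -1.91 and -1.97 on the 3 control arrays. It was -1.81, -1.87 and -1.82 at 1 mg/kg. It was -1.78, -1.79 and -1.79 at 5 mg/kg. Each dose group lay above the highest control array without overlap, and all 5 mg/kg arrays lay above all 1 mg/kg arrays. The log2 difference from the control was 0.12 (SE 0.057, 1.09-fold, n = 3 per group) at 1 mg/kg and 0.17 (SE 0.057, 1.12-fold) at 5 mg/kg. The SD within groups was 0.028, and 2 of the 424 tested miRNAs had a smaller one. In the signal units of the scanner, before scaling, miR-378a-3p was 125 to 147 in the control, 144.1 to 174 at 1 mg/kg and 160 to 178 at 5 mg/kg. On this unscaled measure the 1 mg/kg group overlapped with the control, since 1 mg/kg replicate 1 lay below control replicate 2. Both probes gave higher means at both doses, with 0.13 and 0.11 at 1 mg/kg and 0.19 and 0.15 at 5 mg/kg. The targets of both probes are also found whole in miR-378d, so their agreement does not tell miR-378a-3p apart from miR-378d.

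miR-378b, whose hairpin lies within Msi2, differed from the control by little more than the spread within groups (SD 0.066). Its level was -2.47, -2.40 and -2.42 in the control. It was -2.25, -2.46 and -2.31 at 1 mg/kg, where replicate 2 lay among the controls. It was -2.34, -2.34 and -2.35 at 5 mg/kg, where all arrays lay above the controls. The difference was 0.087 (SE 0.071) at 1 mg/kg and 0.088 (SE 0.071) at 5 mg/kg.

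miR-378d, the member of the family whose seed letters overlap those of miR-193, gave the same order of group means with overlapping arrays. Its level was -2.26, -2.13 and -2.11 in the control, -2.06, -2.19 and -2.12 at 1 mg/kg and -2.05, -2.05 and -2.12 at 5 mg/kg. The lowest array was control replicate 1, and at each dose at least 1 array lay within the control range. The difference from the control was 0.043 (SE 0.069) at 1 mg/kg and 0.097 (SE 0.069) at 5 mg/kg.

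miR-378c gave a signal near the limit of detection, since the lowest signal of any detected miRNA on an array was 5.99 to 8.10 units. Its level was -5.80, -5.50 and -5.82 in the control. It was -5.80, -5.87 and -5.63 at 1 mg/kg and -5.65, -5.67 and -5.62 at 5 mg/kg. The groups overlapped, and control replicate 2 was the highest of the 9 arrays. The difference was -0.060 (SE 0.103) at 1 mg/kg and 0.062 (SE 0.103) at 5 mg/kg. Nearly all of the signal came from 1 of its probes, since the other gave 0.35 to 1.89 units. The total signal per miRNA in the deposited scanner files cannot be used for miR-378c. On all 8 arrays with detection it was 9.46 to 12.7 times the sum of its own probes, and the excess over the total of miR-378b was 0.847 to 0.942 of that sum. The other 6 miRNAs had no such excess on any array.

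miR-193a-3p, which shares its seed with miR-193b-3p, had the largest difference from the control among the 7 at each dose. Its level was -3.26, -3.26 and -3.23 in the control. It was -3.08, -2.83 and -2.87 at 1 mg/kg. It was -3.12, -3.04 and -3.02 at 5 mg/kg. Each dose group lay above all control arrays, and the 2 highest arrays were 1 mg/kg replicates 2 and 3, both in row 2 of the slide. The difference from the control was 0.32 (SE 0.079, 1.25-fold, n = 3 per group) at 1 mg/kg and 0.19 (SE 0.079, 1.14-fold) at 5 mg/kg. In unscaled units the signal was 52.7 to 57.9 in the control, 60.0 to 84.4 at 1 mg/kg and 63.7 to 75.9 at 5 mg/kg, again without overlap with the control. Both probes separated the control from each dose group, with differences of 0.45 and 0.28 at 1 mg/kg and 0.26 and 0.17 at 5 mg/kg. Within row 1 of slide 1, the single 1 mg/kg array lay 0.17 above the mean of the 3 controls. With the row as a block, the differences were 0.27 (SE 0.096) and 0.13 (SE 0.096).

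miR-193b-3p, studied in brown fat and muscle, varied more between mice than between groups. Its level was -1.28, -1.95 and -1.10 in the control. It was -1.67, -1.24 and -1.34 at 1 mg/kg and -1.38, -2.03 and -1.40 at 5 mg/kg. Each group held 1 array that lay clearly lower than its other 2, namely control replicate 2, 1 mg/kg replicate 1 and 5 mg/kg replicate 2. The SD within groups was 0.36, larger than that of 388 of the 424 tested miRNAs. The difference from the control was 0.027 (SE 0.254) at 1 mg/kg and -0.16 (SE 0.254) at 5 mg/kg, both below the SE.

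miR-365-3p, the product of the neighbouring genes, had the same low arrays within a smaller range. Its level was -1.13, -1.27 and -1.01 in the control, -1.23, -1.10 and -1.14 at 1 mg/kg and -1.18, -1.26 and -1.09 at 5 mg/kg. The lowest array of each group was the same as for miR-193b-3p. The difference was -0.019 (SE 0.087) at 1 mg/kg and -0.038 (SE 0.087) at 5 mg/kg.

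**Figure D1:**
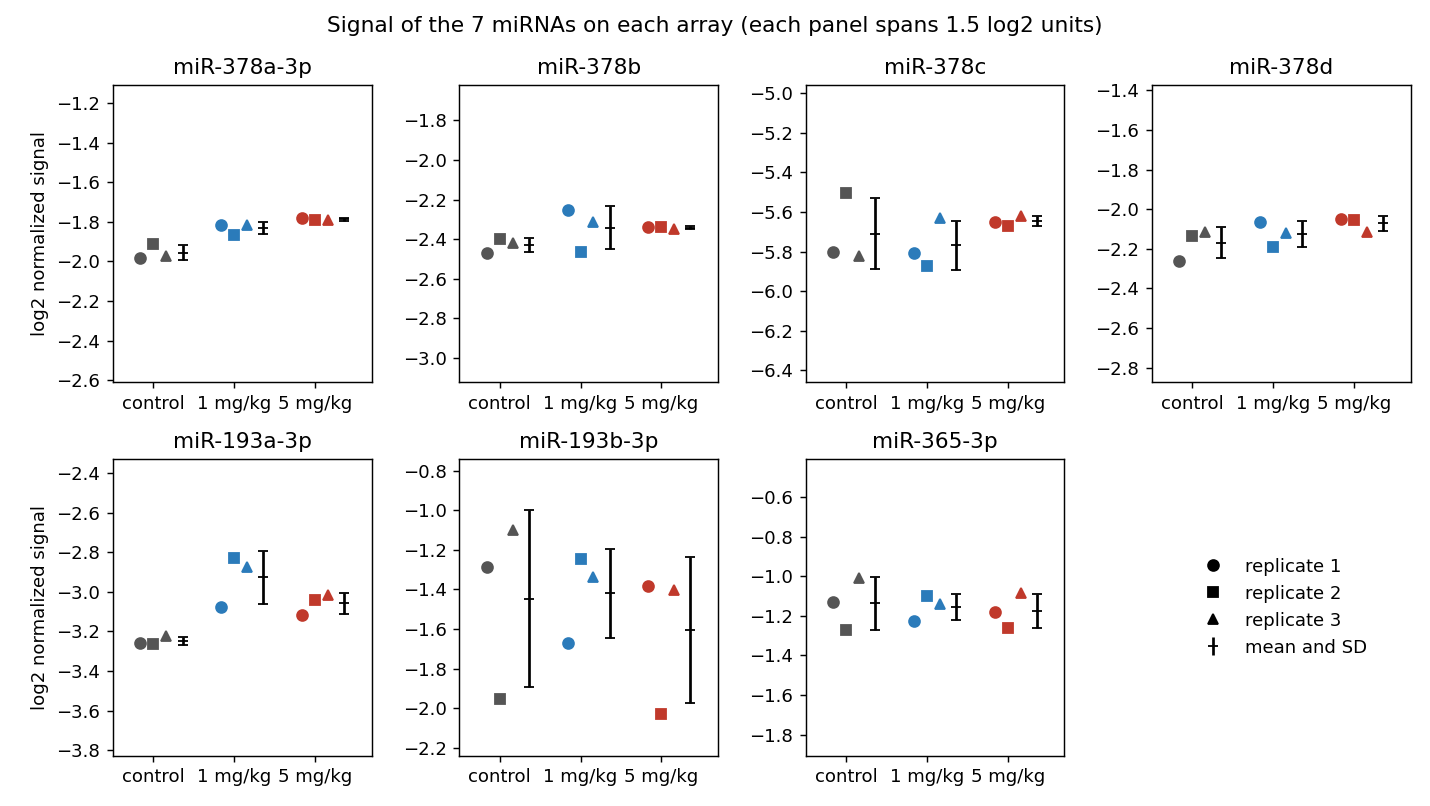
Log2 normalized signal (vertical axis, 1.5 log2 units in each panel) of the 7 miRNAs on each of the 9 arrays, by group. Points are arrays, shaped by replicate number, and bars show the mean and SD of 3 arrays. The control arrays of miR-378a-3p and miR-193a-3p lie below both dose groups, and miR-193b-3p has 1 low array in each group.

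By the unadjusted p under 0.05 that the methods used for screening, the limma fit called 1 of the 7 at 1 mg/kg (miR-193a-3p, higher), where 7.78% of all tested miRNAs were called in either direction and 2.83% as higher. It called 2 of the 7 at 5 mg/kg (miR-378a-3p and miR-193a-3p, higher), where 9.43% of all were called and 4.01% as higher. After Benjamini-Hochberg adjustment over the 424 miRNAs, 0 of the 7 were called at either dose, where 0.236% of all were called at 1 mg/kg and 0 of 424 at 5 mg/kg. Groups did not overlap for 2 of the 7 at 1 mg/kg, all higher, where 4.72% of all tested miRNAs were higher without overlap. At 5 mg/kg they did not overlap for 3 of the 7 (miR-378b in addition), all higher, where this held for 6.60% of all. Of 26 alternatives with a fit, miR-193a-3p was called in 25 at 1 mg/kg (not with normexp) and in 13 at 5 mg/kg. miR-378a-3p was called in 21 at 5 mg/kg and in 5 at 1 mg/kg, where the reported fit did not call it. The methods' LSD comparison and the deposited log2 table were among those 5. miR-378b was called in 1 at 1 mg/kg, the total signal of the files, and in 2 at 5 mg/kg, the total signal and the deposited log2 table. miR-378d was called in 1 at each dose, with the total signal alone. The slide as a block and leaving out 5 mg/kg replicate 3, the only array of slide 2, are the same fit and were counted separately. At 5 mg/kg, the call of miR-193a-3p was lost with the row as a block, 0.13 (SE 0.096), with the slide as a block, 0.17 (SE 0.090), with normexp, with quantile normalization, median scaling or no scaling, with no filter, and without control replicate 1, 2 or 3, 1 mg/kg replicate 3, or 5 mg/kg replicate 2 or 3 left out singly. That of miR-378a-3p was kept with the row as a block, 0.18 (SE 0.073), and lost with normexp, with no filter, and without control replicate 1, control replicate 3 or 5 mg/kg replicate 2. These contrasts chose the families, and both share the control arrays, so nothing is read from the counts.

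**Figure D2:**
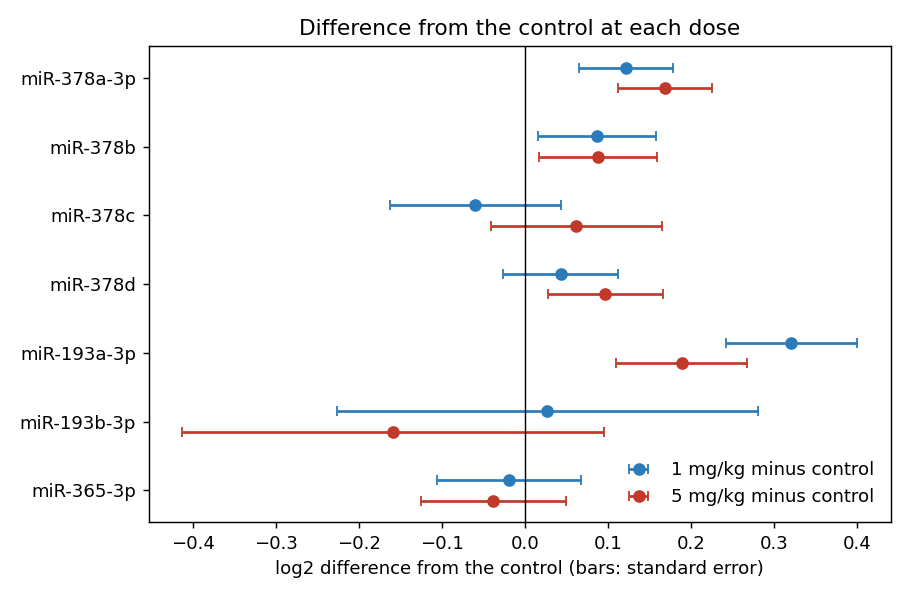
Log2 difference from the control (horizontal axis) at 1 and 5 mg/kg for each miRNA, with bars showing the standard error of the fit. miR-193a-3p lies highest, at 0.32 and 0.19, and miR-193b-3p has the widest bars, with an SE of 0.254.

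Between the doses, 0 of the 7 were called at an unadjusted p under 0.05 by limma, where 3.77% of all tested miRNAs were, and groups did not overlap for 1 of the 7 (miR-378a-3p, higher), where 5.90% of all were higher without overlap. The log2 difference of 5 minus 1 mg/kg was 0.046 (SE 0.057) for miR-378a-3p. It was -0.13 (SE 0.079) for miR-193a-3p, whose level was thus lower at the higher dose, with overlapping arrays. Within row 2 of the slide, which held 2 arrays of each dose, the same difference was -0.23 for miR-193a-3p and 0.057 for miR-378a-3p. For the other 5 it lay between -0.19 for miR-193b-3p and 0.12 for miR-378c, each with an SE of at least 0.069.

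The 2 leading differences kept their sign under each of 28 alternatives, and their size changed under some. Several alternatives cannot change a difference by construction and do not bear on its sign. Among them are the other filters, the 2 groups alone, the LSD comparison, the replicate block and leaving out an array of the group not compared. For miR-193a-3p, the difference at 1 mg/kg ran from 0.067 with normexp background correction to 0.52 in the deposited log2 table, and at 5 mg/kg from 0.013 to 0.46 with the same settings. For miR-378a-3p, it ran from 0.040 with normexp to 0.31 in the deposited table at 1 mg/kg, and from 0.064 with normexp to 0.33 with the total signal of the files at 5 mg/kg. Normexp was run with an offset of 50 units added to each spot, which by its construction shrinks differences of signals of this size. Without scaling between arrays, the median of all tested miRNAs moved up by 0.078 at 1 mg/kg and 0.11 at 5 mg/kg, and the differences of miR-193a-3p were 0.43 and 0.30.

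**Figure D3:**
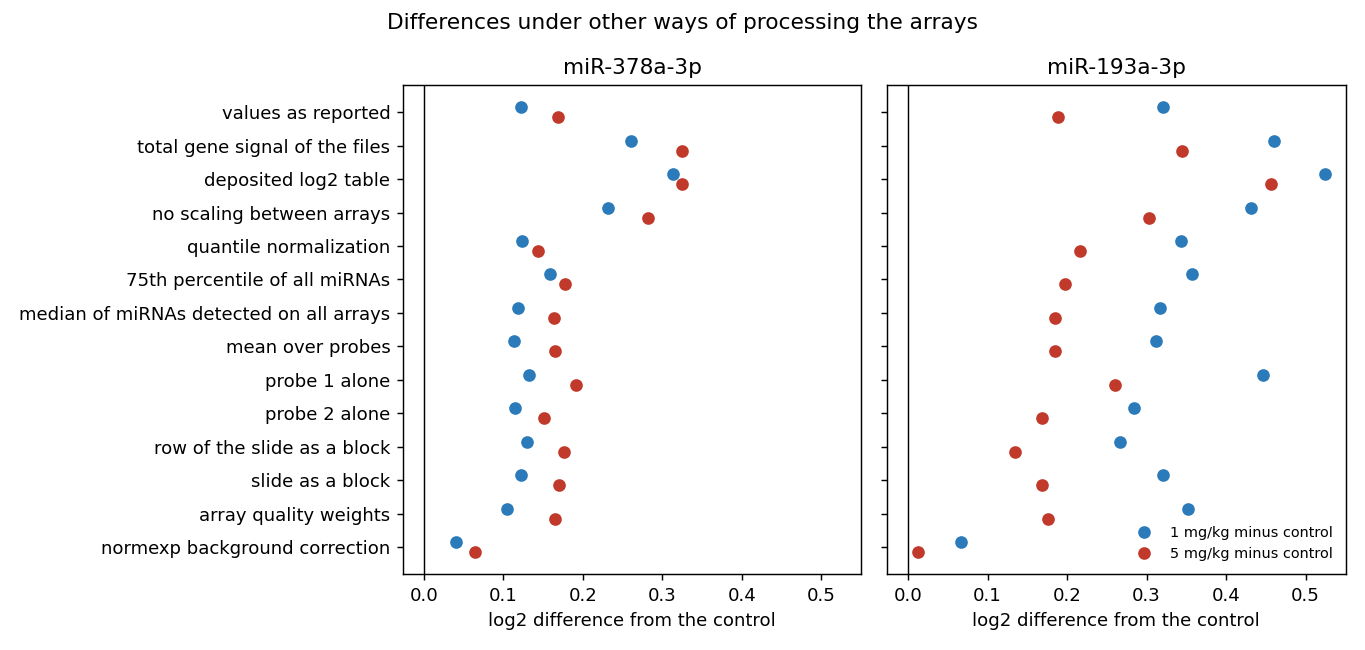
Log2 difference from the control (horizontal axis) of miR-378a-3p and miR-193a-3p at both doses under the reported processing and 13 other settings (vertical axis). All points lie above 0, and those with normexp background correction are the lowest, down to 0.013 for miR-193a-3p at 5 mg/kg.

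Across the 9 arrays, 1 of the 21 pairs among the 7 miRNAs passed after adjustment, by Pearson's r alone. Of all pairs, the highest correlation was that of miR-193b-3p with miR-365-3p. Pearson's r was 0.91 (two-sided exact permutation p = 0.000295 over 362880 pairings, 0.00619 after Benjamini-Hochberg adjustment over the 21 pairs). Spearman's rho was 0.82 (exact permutation p = 0.0108, adjusted 0.226), which did not pass after adjustment. Without the 2 arrays farthest from the median of miR-193b-3p, r was 0.86. It was 0.92 for deviations from the group means and 0.92 for deviations from the means of the slide rows. Row 1 held 5 arrays, with 5 mg/kg replicate 3 of slide 2 among them, and row 2 held 4. No r was computed within the rows. The pair was picked out after its values were seen. All arrays share the scaling, and their mice share the handling of their group.

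miR-193a-3p, the relative by seed of the one and by locus of the other, had low correlations with both. Its r was 0.16 with miR-193b-3p (rho 0.12, exact permutation p = 0.683 and 0.776) and 0.12 with miR-365-3p (rho 0.28, exact permutation p = 0.746 and 0.463). For deviations from the group means these were 0.34 and 0.49. The values of miR-193a-3p helped choose the families, so the p-values of its pairs are a description. Its r with miR-378a-3p, which the choice of the families affects and which is given with no test, was 0.58 over all arrays and -0.48 for deviations from the group means. The group means of miR-378a-3p were highest at 5 mg/kg and those of miR-193a-3p at 1 mg/kg.

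Within the miR-378 family, r was 0.80 for miR-378b with miR-378d (rho 0.68, exact permutation p = 0.00824 and 0.0503). It was 0.74 for miR-378a-3p with miR-378b (rho 0.68, exact permutation p = 0.0257 and 0.0503) and 0.70 for miR-378a-3p with miR-378d (rho 0.73, exact permutation p = 0.0331 and 0.0311). None of these passed after adjustment over the 21 pairs, with adjusted p of 0.0865, 0.174 and 0.174 for r. The values of miR-378a-3p helped choose the families, so the p-values of its pairs are a description. Without the 2 arrays farthest from the median, the values were 0.52, 0.59 and 0.70. With quantile normalization, r of miR-378a-3p with miR-378d fell to 0.27, and in the deposited log2 table to 0.17. miR-378c had r of 0.31 to 0.35 with the other 3 members of its family. The probes of this family share long runs of bases, as given above, and their part in these values was not tested.

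**Figure D4:**
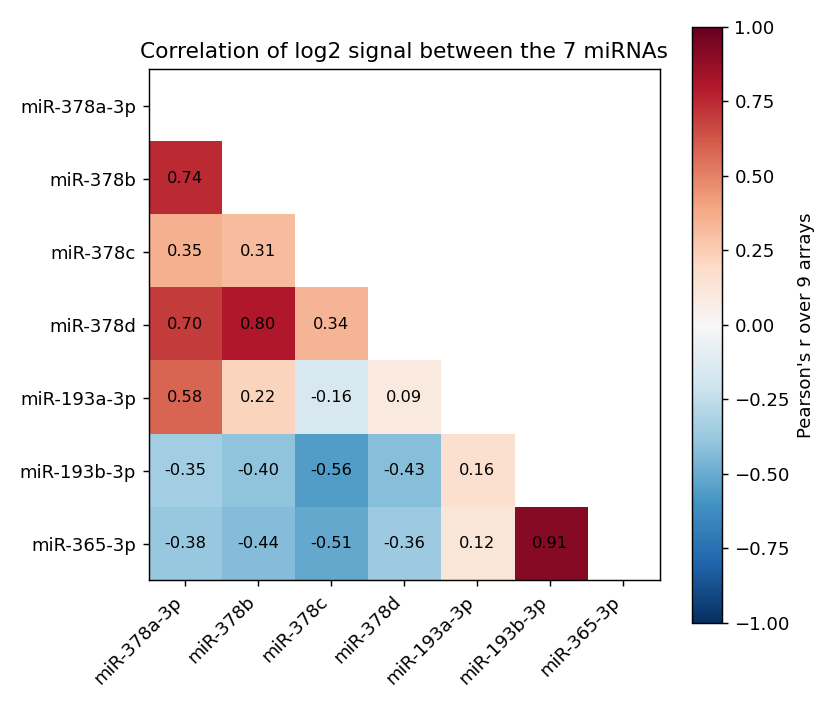
Pearson's r of log2 normalized signal over the 9 arrays for each of the 21 pairs (colour, from -1 to 1, with the value printed). The highest value is 0.91, for miR-193b-3p with miR-365-3p, and the 3 pairs of miR-378a-3p, miR-378b and miR-378d have 0.70 to 0.80.

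Among the 389 other miRNAs detected on all 9 arrays, those with the highest r were listed for each of the 7, as a description with no test. miR-193b-3p was most like miR-598-3p (0.78), miR-1a-3p (0.78) and miR-299b-5p (0.74), and the same 3 led for miR-365-3p, with 0.76, 0.80 and 0.81. miR-1a-3p is the muscle miRNA of heart and skeletal muscle. For these 6 values, r of the deviations from the group means was 0.76 to 0.85. miR-193a-3p was most like miR-505-5p (0.81), miR-152-3p (0.74) and miR-28c (0.70). miR-378a-3p was most like miR-872-3p (0.87), miR-381-3p (0.85) and miR-3107-5p (0.81), but within groups these had r of only 0.52, 0.36 and 0.17. The 3 nearest to miR-378b were miR-223-3p (0.83), a myeloid miRNA, and miR-145a-5p (0.77) and miR-143-3p (0.75), which are known from smooth muscle. miR-378d was nearest to miR-7b-3p (0.87), miR-5117-3p (0.86) and miR-374c-5p (0.80), and miR-378c to miR-744-5p (0.81), miR-3475 (0.65) and miR-9-5p (0.64).

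Striated muscle markers varied from array to array as well. Of the 7 muscle markers, miR-1a-3p, miR-133a-3p and miR-133b-3p were detected on all 9 arrays, and miR-206-3p, miR-208a-3p, miR-208b-3p and miR-499-5p on 0 arrays. Their summed level was -0.92, -1.65 and -1.09 in the control, -1.31, -1.26 and -1.14 at 1 mg/kg and -1.67, -1.80 and -0.91 at 5 mg/kg. The array with the lowest sum in each group was the one with the lowest miR-193b-3p. Not all arrays matched in this way: replicates 1 and 3 at 5 mg/kg had sums of -1.67 and -0.91 but levels of miR-193b-3p of -1.38 and -1.40. The part of muscle or vessel RNA in the signals of miR-193b-3p and miR-365-3p was not tested.

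**Figure D5:**
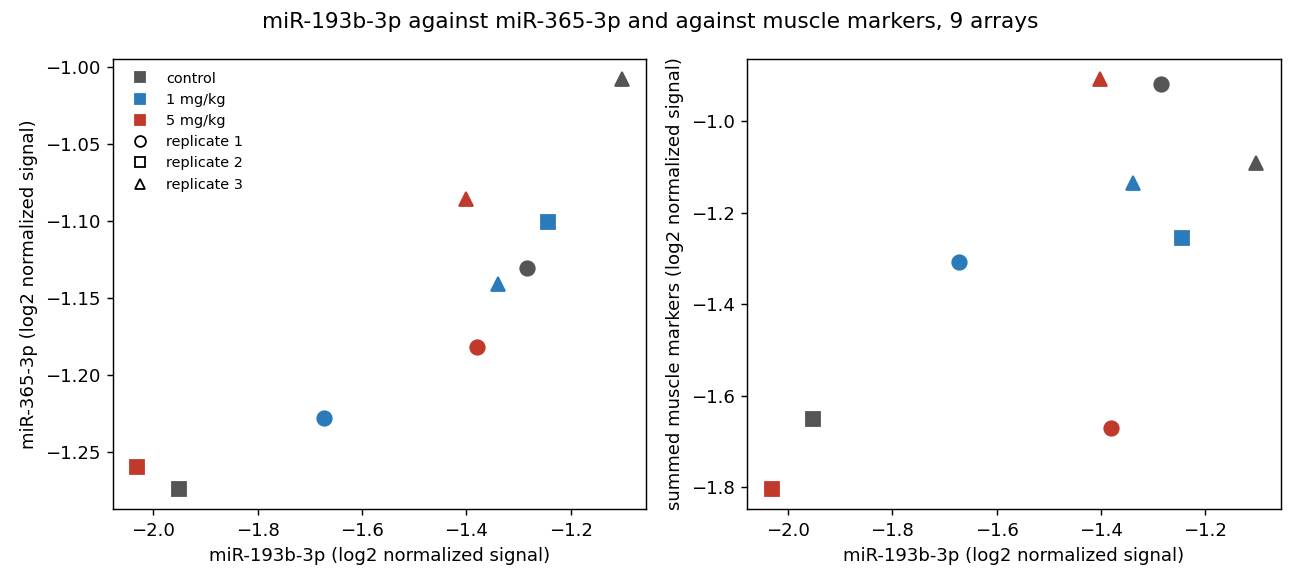
miR-193b-3p (horizontal axes) against miR-365-3p (left) and against the summed level of 7 muscle markers (right), all in log2 normalized signal, for the 9 arrays coloured by group and shaped by replicate number. The points rise together on the left (r of 0.91). Control replicate 2 and 5 mg/kg replicate 2 are lowest in miR-193b-3p, at -1.95 and -2.03.

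Markers of other sources also differed between groups and are set beside miR-378a-3p and miR-193a-3p. The 3 choroid plexus markers (2 detected on all 9 arrays) had a summed level of 1.62 to 2.29 in the control, 2.42 to 3.13 at 1 mg/kg and 1.51 to 2.48 at 5 mg/kg. The sum was thus highest in the group where miR-193a-3p was highest. miR-204-5p, its main member, was higher by 0.77 (SE 0.282) at 1 mg/kg, past an unadjusted p under 0.05, with an adjusted p of 0.538. Of the 6 blood markers, 5 were on the array by name and 4 were detected on all 9 arrays, with a summed level of 1.88 to 2.16 in the control, 1.92 to 2.08 at 1 mg/kg and 2.19 to 2.29 at 5 mg/kg, above all control arrays. At 5 mg/kg, miR-451a of red cells was higher by 0.26 (SE 0.102) and miR-142-3p of leukocytes by 0.21 (SE 0.084), both past an unadjusted p under 0.05, with an adjusted p of 0.469. The 5 brain markers were detected on all 9 arrays. Their summed level was 7.232 to 7.459 in the control, 7.003 to 7.268 at 1 mg/kg and 7.166 to 7.412 at 5 mg/kg, with overlapping groups. The part of blood or choroid plexus RNA in the differences of miR-378a-3p and miR-193a-3p was not tested.

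Other miRNAs linked to the same metabolic functions were counted against the share of all tested miRNAs called, 7.78% at 1 mg/kg and 9.43% at 5 mg/kg, and no test of the lists was made. In the list for brown and beige fat and mitochondria (23 families), 24 of 49 entries on the array were tested and 0 were called at an unadjusted p under 0.05 by limma, in either direction and at either dose. Their median log2 difference was -0.016 at 1 mg/kg and -0.028 at 5 mg/kg, beside -0.032 and -0.0035 over all 424 miRNAs. In the list for lipid, cholesterol and insulin (15 families), 17 of 32 entries were tested, and 2 passed an unadjusted p under 0.05 at the lower dose. At 1 mg/kg, miR-143-3p was higher by 0.29 (SE 0.114, adjusted p = 0.543), from -1.45 ± 0.13 (SD, n = 3) to -1.16 ± 0.20, with overlapping arrays. miR-29b-1-5p, from the hairpin of miR-29b, was lower, with a difference of -0.17 (SE 0.070, adjusted p = 0.543), from -2.95 ± 0.087 to -3.12 ± 0.068, without overlap. At 5 mg/kg 0 of the 17 were called. The median difference over the list was 0.012 at 1 mg/kg and 0.096 at 5 mg/kg. In the muscle list (8 families), 3 of 16 entries were tested and 0 were called, with median differences of 0.037 and -0.29. Adjusted over all 424 miRNAs, 0 entries of the 3 lists were called at either dose.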

How the data were processed

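The RNA of 9 hippocampi, 3 per group, had been hybridized to Agilent mouse miRNA arrays (version 19.0). The authors extracted the scans with Agilent Feature Extraction 10.7 (per the labels' processing notes), and the deposited scanner files hold per spot a background-subtracted intensity, mean and background intensities and flags, and per miRNA a detection call and total signal, not normalized between arrays. A log2 table of 1268 entries was deposited too. Its columns have the same 75th percentile, 1.60, and medians of -3.32 to -3.29, and its values correlated with the log2 processed signals at r of 0.976 to 0.983 over detected miRNAs. Its normalization is not given in the sources used here. The total signal per miRNA exceeded the sum of the miRNA's own probes by more than 1% of that sum, on at least 1 array, for 151 of 452 detected miRNAs, and was used only as an alternative.

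From the processed intensities, outlier spots were left out (102 of 2520 for the 7 miRNAs over all arrays), the spots of a probe were averaged and the probes of a miRNA summed. The sums were divided by their array's 75th percentile among the 395 miRNAs with detection on every array, floored at the lowest signal of a detected miRNA on that array, and put on the log2 scale. limma 3.58.1 in R 4.3.3 fitted the 3 groups over the 424 miRNAs with detection throughout a group, with moderated variances and Benjamini-Hochberg adjustment. Correlations were tested by enumerating all pairings with scipy. On simulated data for 5 mg/kg bw against the control, 91.5% of 40 miRNAs given a log2 change of 1 were recovered among 424, and 4.95% of the unchanged ones fell under an unadjusted p of 0.05. Recovery of changes as small as those of the 7 miRNAs, at most 0.32, was not simulated. The simulated spread was independent between miRNAs and held no row or slide effect. No 2 arrays shared a spot value (0 of 49880 spots). Replicate numbers were not taken as pairing the mice: in 9 pairs of same-numbered arrays, deviations from the group means correlated between -0.65 and 0.74 across miRNAs.

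The 7 miRNAs were found by name (the miR-378, miR-193 and miR-365 families) and detection on at least 3 arrays. They and the lists were chosen with earlier results of these data known. The text names the 7, the other family entries, the 3 miRNAs most like each of the 7 over 9 arrays, and the list entries and markers called against the control. P-values measure the spread between these mice alone. Sequences and positions are from RefSeq (GRCm38.p6), where 6 of the 7 matched. Alternatives were the total signal, normexp (offset 50), 4 other scalings, 3 other filters, the log2 table, the mean over probes and 2 groups alone. Further ones were the LSD comparison without the methods' ANOVA step, blocks, array weights, single probes and each array left out. Those for the correlations were chosen after seeing the data.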

Additional observations from a re-analysis of the deposited data

How the results depend on the processing

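The signs of the differences of miR-378a-3p, miR-378b and miR-193a-3p from the control stayed under all 28 alternatives. Some of the alternatives cannot change a difference, as given above. The differences of miR-378c, miR-378d, miR-193b-3p and miR-365-3p changed sign under some, at 1 dose or both. In the values below, those against the control come first for 1 mg/kg and then for 5 mg/kg. The total signal of the files was not usable for miR-378c and gave 0.261 and 0.325 for miR-378a-3p, 0.226 and 0.244 for miR-378b, 0.183 and 0.254 for miR-378d, 0.46 and 0.345 for miR-193a-3p, and 0.12 and 0.118 for miR-365-3p. Without scaling between arrays, the differences were 0.232 and 0.282 for miR-378a-3p, 0.197 and 0.202 for miR-378b, 0.153 and 0.211 for miR-378d, 0.431 and 0.303 for miR-193a-3p, and 0.09 and 0.075 for miR-365-3p. The deposited log2 table gave 0.313 and 0.324 for miR-378a-3p, 0.235 and 0.312 for miR-378b, 0.224 and 0.594 for miR-378c, and 0.524 and 0.457 for miR-193a-3p, and between the doses 0.011, 0.077 and 0.37 for the first 3. Normexp gave 0.04 and 0.064 for miR-378a-3p, 0.007 and 0.004 for miR-378b, 0.067 and 0.013 for miR-193a-3p, and at 5 mg/kg -0.069 for miR-378c and 0.015 for miR-378d. With the 75th percentile of all miRNAs, miR-378a-3p differed by 0.158 at 1 mg/kg. The first probe alone gave 0.595 and 0.766 for miR-378c and 0.447 for miR-193a-3p at 1 mg/kg. The call of miR-193a-3p at 5 mg/kg was lost in 13 of 26 alternatives with a fit and that of miR-378a-3p in 5, and the call of miR-193a-3p at 1 mg/kg in 1. With the total signal and without scaling, the differences of the miRNAs listed moved up by nearly the same amount at each dose. A change in the scale factor of the arrays moves all miRNAs alike by construction, so these shared shifts are not particular to a miRNA. The offset of normexp shrinks low signals. The cause of the other shifts was not tested.

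The number of miRNAs called at an unadjusted p under 0.05 (33, 40 and 16 for 1 mg/kg against the control, 5 mg/kg against the control and 5 against 1 mg/kg) was 14, 17 and 9 with normexp, and 70, 72 and 35 with array weights. A block for slide rows gave 8 and 14 against the control. It was 780 at 1 mg/kg without a filter, where undetected miRNAs lie at each array's own floor, and 102 at 5 mg/kg with the total signal. With the slide as a block it was 120 at 5 mg/kg and 35 between the doses, which is the same fit as without 5 mg/kg replicate 3. Leaving out 1 array gave 11 to 49, 21 to 120 and 8 to 35. At 1 mg/kg it was 11 without control replicate 1 and 21 without 1 mg/kg replicate 2 or 3. At 5 mg/kg it was 21 without control replicate 1 or 5 mg/kg replicate 1 or 2, and 120 without 5 mg/kg replicate 3. Between the doses it was 10 and 8 without 1 mg/kg replicates 2 and 3, and 9 and 35 without 5 mg/kg replicates 1 and 3. Of the calls, 12, 17 and 6 were higher. Without scaling this was 26 of 28, 33 of 34 and 2 of 13, and with the total signal 37 of 43, 92 of 102 and 11 of 21. It was 16 of 33 at 1 mg/kg and 4 of 15 between the doses with the 75th percentile of all miRNAs, 13 of 41 at 5 mg/kg with the median, 9 of 18 between the doses with quantile normalization, and 18 of 34 at 5 mg/kg in the deposited table. The LSD comparison without moderation and without a preceding ANOVA called 31, 43 and 20, of which 5, 20 and 17 were higher, and 0, 0 and 1 after Benjamini-Hochberg adjustment. With the replicate block the counts were 36, 36 and 15. The differences of the 7 miRNAs cannot move there, since every group holds each replicate number.

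The correlation of miR-193b-3p with miR-365-3p kept an exact permutation p under 0.05 in all 13 alternatives, with r of 0.805 to 0.936. That of miR-378a-3p with miR-378b was 0.667 in the deposited table and ran from 0.638 (without control replicate 1) to 0.822 with 1 array left out. That of miR-378b with miR-378d was 0.514 in the table. That of miR-378a-3p with miR-378d was 0.268 with quantile normalization and 0.169 in the table, and ran from 0.5 (without control replicate 1) to 0.871 with 1 array left out. It was 0.686 without 1 mg/kg replicate 1, 0.65 without 5 mg/kg replicate 1 and 0.662 without 5 mg/kg replicate 2. Apart from 0.822 and 0.871, each of these values for the miR-378 family had an exact permutation p over 0.05. The number of arrays and signals near the background, as for miR-378c, limit what can be seen.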
